A study of Danio rerio with 18 samples.

Results

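Solute carriers are membrane proteins that move amino acids, sugars, ions, metals, vitamins and other small molecules across the plasma membrane and the membranes of organelles. The genes described here are all RefSeq (NM_) features of the array whose current zebrafish symbol begins with slc and a number, with the mitochondrial slc25 carriers and slc17a6a, slc6a5 and slc24a5 left out. They came to 44 features, 1 per gene, of 37105 tested on the array, and belong to 28 slc families. The rule uses no measured value.

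Most solute carriers do not split ATP themselves. Such a carrier moves its substrate down a gradient or couples it to a gradient of sodium, protons or another solute, and many carriers exchange one solute for another. In the embryo such carriers load synaptic vesicles with transmitter, clear transmitter from the synapse, supply growing cells with amino acids and lipids, and set the content of lysosomes and of the secretory pathway. Roles given below for single genes are those known from human and mouse, unless another source is named. The kinds of substrate used for counts follow the number of the slc family. A single gene can thus carry another substrate than its heading, as does slc16a10 below.

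Each sample pooled 40 whole zebrafish embryos, and its RNA was measured on a one-colour array. The study's title puts the question as one of surface chemistry, and the study compared gold particles of 1.5 nm that carried different ligands. TMAT embryos received 10 µg/mL of particles coated with trimethylammoniumethanethiol, a cationic ligand, MES embryos received 50 µg/mL of particles coated with mercaptoethanesulfonate, an anionic ligand, and control embryos received the vehicle. Collection was at 48 or 24 hours after fertilization (hpf), with 3 arrays in each of the 6 groups. All groups were dechorionated at 4 hpf, were exposed from 6 hpf, and have 37 °C in the labels. Ligand and dose changed together, so a difference between the particles cannot be told apart from one of dose. The sources do not say whether pools came from separate clutches, so p-values measure the spread between pools, which may be technical. The main fit estimated that spread for each gene over all 6 groups together, though the groups differed in spread. The median SD over the solute carriers (log2) was 0.55 in controls, 0.28 in MES and 0.32 in TMAT embryos at 24 hpf. At 48 hpf it was 0.31 in controls, 0.17 in MES and 0.18 in TMAT embryos.

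The values are intensities after RMA normalization by the authors. Array medians lay between 1809 and 2197. Random control probes ranged from 78.8 to 96.4 over 12 exposed arrays, and from 82.8 to 169 over 6 control arrays. Array 2 of the 48 hpf controls and array 1 of the 24 hpf controls correlated least with other arrays of their age (mean r across features of 0.881 and 0.885, against 0.940 to 0.969 for the other 16). The authors' combined table labels 16 of its 18 columns with another array's name, and the per-array labels were used. By these, the summed intensity of the 3 measured skeletal muscle markers was 94931 to 115307 at 48 hpf, against 43170 to 57326 at 24 hpf. That of the 7 measured lens markers was 107447 to 169507 at 48 hpf, against 17816 to 26289 at 24 hpf. These sums separate the ages without overlap, while no gene measured here checks the labels of agent.

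**Figure D1:**
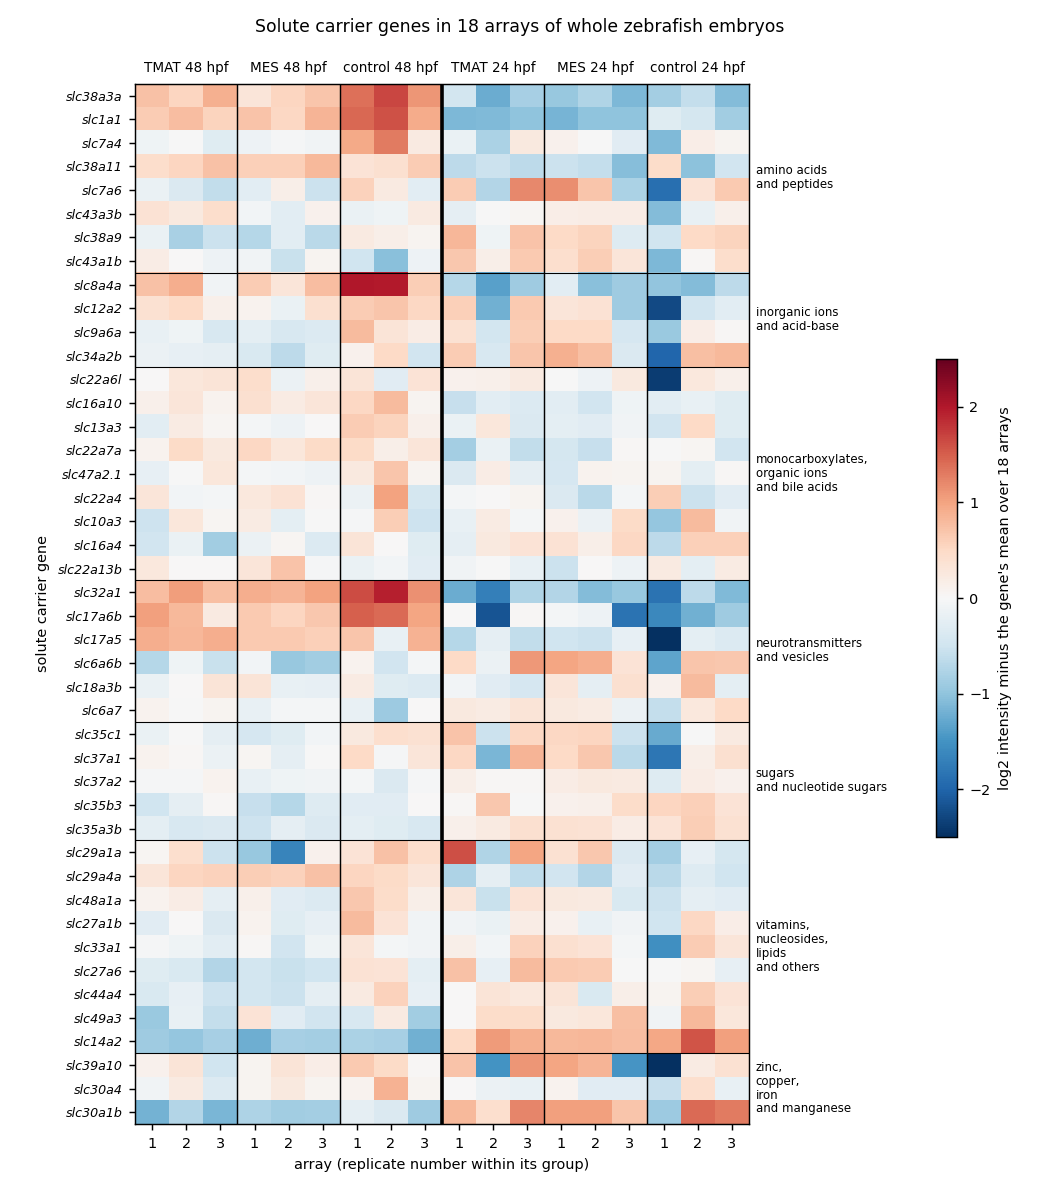
The heat map gives each of the 44 solute carriers a line, grouped by the kind of substrate of its slc family, and each of the 18 arrays a column, with log2 intensity as the difference from that gene's mean over all arrays. The columns run from the 48 hpf groups to the 24 hpf groups, and control array 1 at 24 hpf shows low values for many genes that the other controls of its age do not.

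Between 24 and 48 hpf, 19 of these genes were called in at least 1 treatment. Foremost were rises in carriers of transmitters, glutamine, glutamate and calcium and a fall in a urea carrier. In exposed embryos the later age also meant a longer exposure, so age and length of exposure cannot be told apart there. Of the 44 genes, 12 were called in TMAT embryos (8 higher and 4 lower at 48 hpf), against 15.5% of all features (7.9% higher and 7.55% lower). In MES embryos 14 were called (8 higher and 6 lower), against 26% of all features (13.4% and 12.6%). In controls 15 were called (12 higher and 3 lower), against 26.8% of all features (13.4% and 13.4%). With only the groups compared in the fit, controls had 6 (5 higher and 1 lower), against 7.18% of all features (5.12% and 2.06%). Those 6 were slc14a2, slc17a6b, slc1a1, slc32a1, slc38a3a and slc8a4a, so the other control calls below depend on the spread over all groups. The median log2 difference over the 44 genes was -0.06 in TMAT embryos, -0.19 in MES embryos and 0.42 in controls, beside -0.03, -0.04 and -0.01 over all features. Single arrays moved these medians: leaving out 1 array gave -0.24 (without TMAT array 2 at 24 hpf) to 0.03 (without TMAT array 1 at 24 hpf) in TMAT embryos, -0.29 to -0.11 in MES embryos (without MES array 3 at 24 hpf and MES array 2 at 48 hpf), and 0.05 to 0.59 in controls (without control array 1 and 2 at 24 hpf). These calls are limma's at an adjusted p under 0.05, with Benjamini-Hochberg adjustment across the 37105 features and n = 3 arrays a group. In whole embryos, fewer cells of a type and less RNA per cell cannot be told apart.

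The 3 comparisons of age use separate arrays, but the main fit gave them the same estimate of spread for each gene. Calls in all 3 are therefore not independent. Called in all 3 were 8 genes, of which slc32a1, slc8a4a, slc38a3a, slc1a1, slc29a4a and slc38a11 were higher at 48 hpf and slc35a3b and slc14a2 were lower. Another 11 were called in 1 or 2 of the 3, and 25 in none. No gene was called with opposite signs in different treatments, and 28 of the 44 had 1 sign in all 3. These counts across treatments, and that of 19 called in at least 1, were made for the 44 genes only. Without the same counts over all features, they do not show whether the carriers differ from other genes. For none of the 44 did the test of a difference between an exposed group and controls in this change pass the threshold. Of the 8 genes, slc35a3b in TMAT embryos, slc8a4a in MES embryos and slc38a11 in controls lost the call without at least 1 array. With only the groups compared in the fit, controls kept no call for slc38a11, slc29a4a (limma adjusted p = 0.0929) or slc35a3b (0.144).

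**Figure D2:**
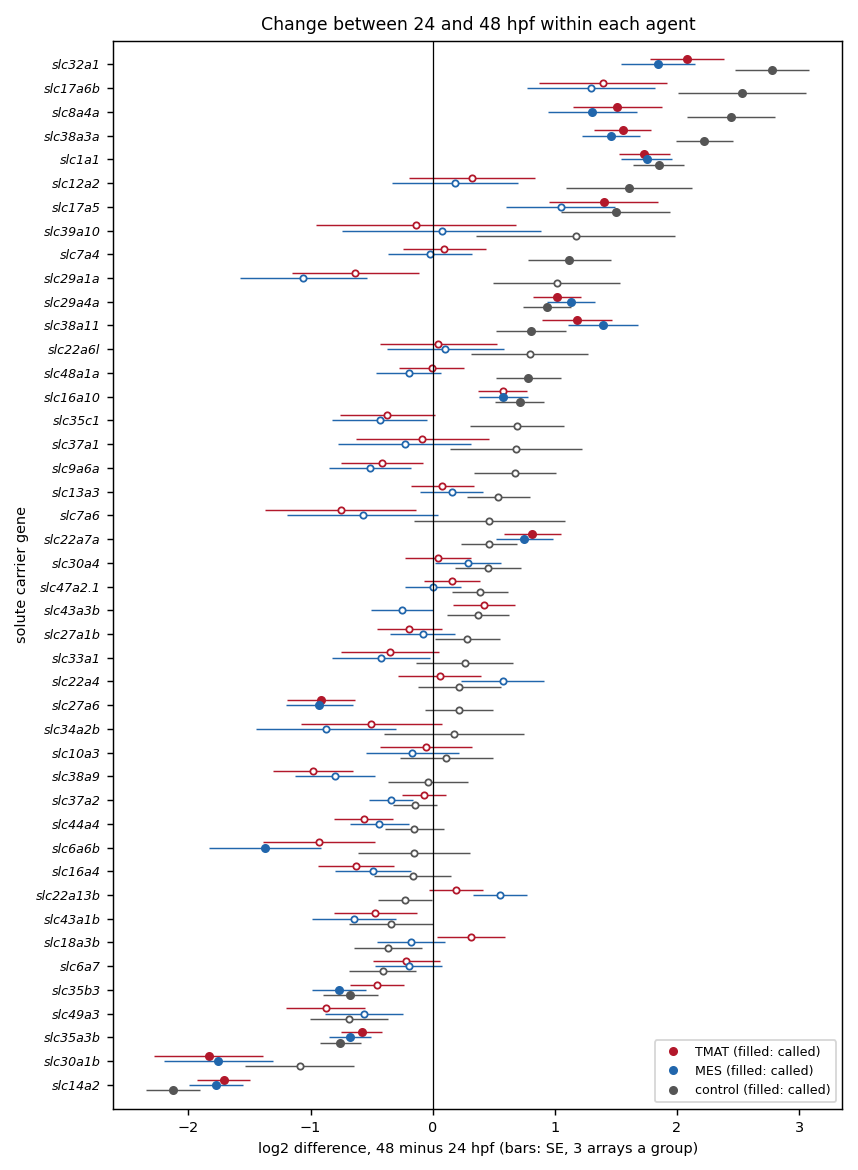
Each line of points is 1 solute carrier, and the horizontal axis is its log2 difference, 48 hpf minus 24 hpf, with bars for 1 standard error, in TMAT embryos, MES embryos and controls. Filled points passed an adjusted p of 0.05. From slc32a1 at the high end to slc14a2 at the low end, 8 genes are filled in all 3 treatments.

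Of the 6 carriers of transmitters and vesicles, 2 rose in TMAT embryos, 1 rose and 1 fell in MES embryos, and 3 rose in controls. Beside this count and those of the other kinds of substrate, 15.5%, 26% and 26.8% of all features were called in TMAT, MES and control embryos. slc32a1 encodes the vesicular GABA and glycine transporter of inhibitory neurons. Its intensity was 5470.5, 6671 and 5409 in TMAT embryos, 6074, 5789 and 6480.4 in MES embryos and 10029.5, 12461 and 7105 in controls at 48 hpf. slc32a1 at 24 hpf gave 1370.4, 987 and 1925 in TMAT embryos, 1937, 1522 and 1661 in MES embryos and 890.3, 2054 and 1499.8 in controls. Every 48 hpf array stood above every 24 hpf array, and the controls were highest at 48 hpf. It differed on the log2 scale by 2.08 ± 0.30 (SE) in TMAT embryos, 1.85 ± 0.30 in MES embryos and 2.78 ± 0.30 in controls (limma adjusted p = 0.000183, 0.000488 and 1.01e-05).

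slc17a6b encodes a vesicular glutamate transporter (VGLUT2) of excitatory neurons. Its intensity was 8444, 7243 and 4881 in TMAT embryos, 6572, 5991 and 6659 in MES embryos and 11719, 11097.5 and 8249.9 in controls at 48 hpf. slc17a6b at 24 hpf gave 4197.5, 928 and 4229 in TMAT embryos, 4035, 3791 and 1158 in MES embryos and 1362, 1797 and 2256 in controls. Ages did not overlap in any treatment, but TMAT array 2 and MES array 3 at 24 hpf stood far below the others of their groups. Log2 differences were 1.39 ± 0.52 in TMAT embryos, 1.30 ± 0.52 in MES embryos and 2.53 ± 0.52 in controls (limma adjusted p = 0.0892, 0.0784 and 0.00226), so only the rise in controls passed the test. Its paralogue slc17a6a and slc6a5, the neuronal glycine transporter, which are not among the 44, rose in all 3 treatments: by 1.68, 1.30 and 2.81 for slc17a6a and by 2.12, 2.01 and 2.47 for slc6a5 on the log2 scale, in TMAT, MES and control embryos.

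slc17a5 encodes sialin, which exports sialic acid from lysosomes. It gave 10581, 10028 and 10608 in TMAT embryos, 8938, 8844 and 8580.4 in MES embryos and 9078, 4989 and 10273 in controls at 48 hpf. slc17a5 at 24 hpf gave 3446, 4857 and 3668 in TMAT embryos, 3981, 3912 and 4929.8 in MES embryos and 968, 4800.5 and 4440.3 in controls. Control array 1 at 24 hpf was far below every other array, and control array 2 at 48 hpf was far below the rest of its age. The log2 difference of slc17a5 was 1.40 ± 0.45, 1.05 ± 0.45 and 1.50 ± 0.45 in TMAT, MES and control embryos (limma adjusted p = 0.044, 0.0941 and 0.0214). The taurine transporter slc6a6b fell in MES embryos, with a log2 difference of -1.37 ± 0.46 (limma adjusted p = 0.0383), beside -0.93 in TMAT embryos and -0.15 in controls, neither past the threshold. The brain proline transporter slc6a7 passed in none, with -0.21, -0.20 and -0.41 in TMAT, MES and control embryos. slc18a3b, of the vesicular acetylcholine transporter family, lay between 91.0 and 212 on all 18 arrays, close to the random probes.

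Of the 8 genes of amino acid carrier families, 3 rose in TMAT embryos, 3 in MES embryos and 4 in controls, and none fell. slc38a3a encodes the glutamine transporter SNAT3. Its intensity was 6287, 5497 and 6984 in TMAT embryos, 4689.5, 5506 and 6144 in MES embryos and 9837, 11994.5 and 8185 in controls at 48 hpf. slc38a3a at 24 hpf gave 2771, 1602 and 2142 in TMAT embryos, 1969, 2243.5 and 1727 in MES embryos and 2110.1, 2508 and 1793 in controls. The ages were far apart in every treatment. The log2 difference was 1.56 ± 0.23 in TMAT embryos, 1.46 ± 0.23 in MES embryos and 2.22 ± 0.23 in controls (limma adjusted p = 0.000249, 0.000408 and 7.53e-06).

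slc1a1 encodes the glutamate and cysteine transporter EAAT3. Its intensity was 2121, 2343 and 2025 in TMAT embryos, 2242, 1969 and 2466 in MES embryos and 3696, 4113 and 2613 in controls at 48 hpf. slc1a1 at 24 hpf gave 632, 633.5 and 682.5 in TMAT embryos, 616, 683 and 679 in MES embryos and 1112, 1016 and 749 in controls. Controls were above both exposed groups at either age, without overlap. The difference between ages was 1.73 ± 0.21, 1.75 ± 0.21 and 1.85 ± 0.21 on the log2 scale in TMAT, MES and control embryos (limma adjusted p = 3.1e-05, 2.73e-05 and 1.33e-05). The change of effect between the ages was -0.12 ± 0.29 for TMAT and -0.10 ± 0.29 for MES, with neither past the threshold.

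slc38a11 is a member of the same family as slc38a3a whose substrate is poorly defined. It gave 873, 935 and 1079 in TMAT embryos, 979.8, 981 and 1134 in MES embryos and 818, 855 and 1005 in controls at 48 hpf. slc38a11 at 24 hpf gave 412, 444 and 411 in TMAT embryos, 449, 427 and 311 in MES embryos and 889, 317 and 466 in controls. Control array 1 at 24 hpf lay within the range of the 48 hpf arrays, so that ages overlapped in controls and not in exposed embryos. The ages differed by a log2 of 1.18 ± 0.29, 1.40 ± 0.29 and 0.81 ± 0.29 in TMAT, MES and control embryos (limma adjusted p = 0.00934, 0.00257 and 0.0477). slc7a4, of the cationic amino acid transporter family, rose in controls by 1.12 ± 0.34 (limma adjusted p = 0.0245), with 0.10 in TMAT and -0.02 in MES embryos. None of the other 4 genes of these families passed in any treatment: slc38a9, a lysosomal arginine sensor, slc7a6, an exchanger of cationic and neutral amino acids, and slc43a1b and slc43a3b.

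**Figure D3:**
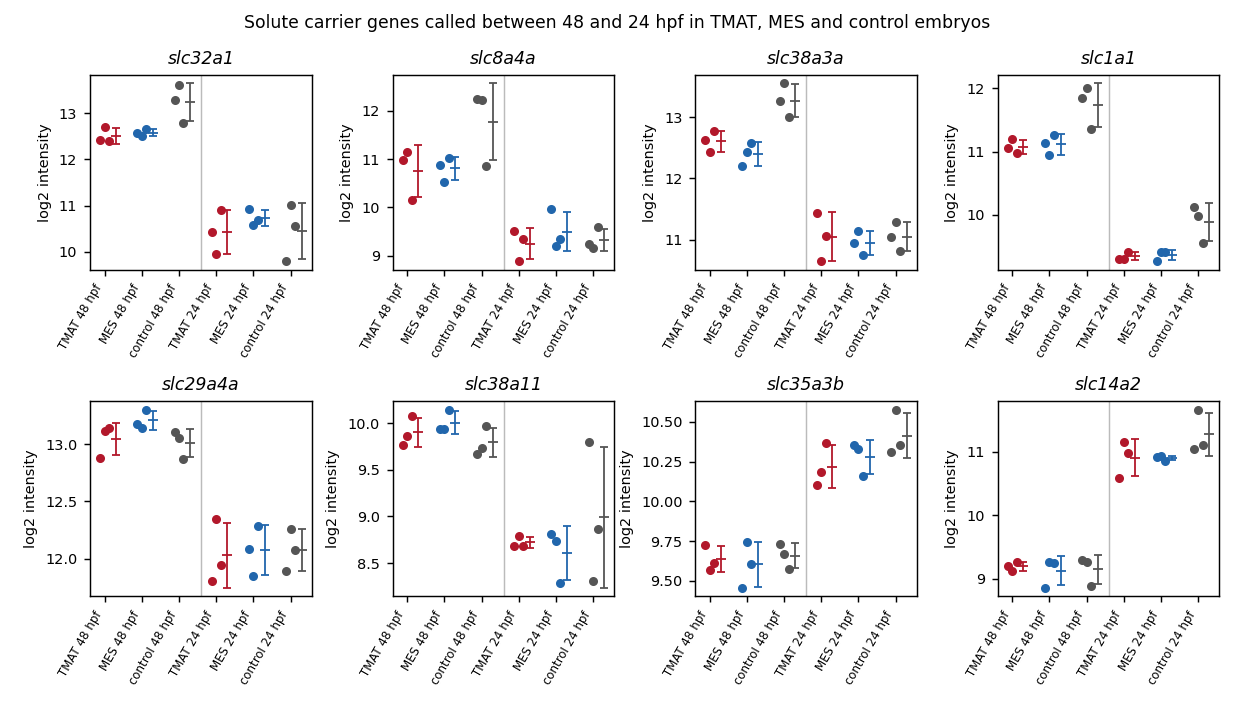
The panels show the 8 genes called between the ages in all 3 treatments, with the log2 intensity of each array as a point and the group mean with its SD (n = 3) as a bar, for TMAT, MES and control embryos at 48 hpf and then at 24 hpf. The 6 genes higher and the 2 genes lower at 48 hpf keep their direction in each treatment, and slc38a11 overlaps between the ages in controls.

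Of the 4 ion carriers, 1 rose in TMAT embryos, 1 in MES embryos and 2 in controls, and none fell. slc8a4a is of the sodium/calcium exchanger family. Its intensity was 2015, 2267 and 1133 in TMAT embryos, 1868, 1481 and 2069.5 in MES embryos and 4841, 4779 and 1851 in controls at 48 hpf. slc8a4a at 24 hpf gave 733, 472 and 647 in TMAT embryos, 1000.4, 585 and 647 in MES embryos and 608, 571 and 767.5 in controls. Control array 3 at 48 hpf had less than the other controls of its age and lay among the exposed arrays. Between the ages it differed by 1.51 ± 0.36 in TMAT embryos, 1.31 ± 0.36 in MES embryos and 2.44 ± 0.36 in controls (limma adjusted p = 0.009, 0.0161 and 0.000162).

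slc12a2 encodes the sodium, potassium and chloride cotransporter NKCC1, which keeps chloride high in ear, secretory and immature nerve cells. It gave 15508.5, 16826 and 12980.4 in TMAT embryos, 12639, 10588 and 15632 in MES embryos and 18375, 19249 and 16916 in controls at 48 hpf. slc12a2 at 24 hpf gave 18052, 5171 and 18644 in TMAT embryos, 14617, 15213 and 6401 in MES embryos and 2503, 8520.2 and 9907 in controls. It was called in controls (1.61 ± 0.52, limma adjusted p = 0.031), with 0.32 in TMAT and 0.19 in MES embryos. The other 2 ion carriers, the endosomal sodium/proton exchanger slc9a6a and the sodium/phosphate cotransporter slc34a2b, passed in no treatment (slc9a6a: -0.41, -0.52 and 0.67 in TMAT, MES and control embryos).

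The 9 carriers of vitamins, nucleosides, lipids and other substrates moved in both directions, with 1 rise and 2 falls in TMAT embryos, 1 rise and 2 falls in MES embryos, and 2 rises and 1 fall in controls. slc14a2, a urea transporter, gave 592, 555 and 613 in TMAT embryos, 466, 617 and 606 in MES embryos and 631, 615 and 472 in controls at 48 hpf. slc14a2 at 24 hpf gave 1535, 2284 and 2019.7 in TMAT embryos, 1925, 1951.5 and 1860.4 in MES embryos and 2119, 3239.9 and 2209 in controls. All 9 arrays at 48 hpf lay far below all 9 at 24 hpf, and no other gene of the 44 fell further in controls. The log2 difference was -1.71 ± 0.22 in TMAT embryos, -1.78 ± 0.22 in MES embryos and -2.12 ± 0.22 in controls (limma adjusted p = 5.8e-05, 3.93e-05 and 6.06e-06).

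slc29a4a encodes a transporter of adenosine and monoamines (ENT4). It gave 7555, 8881 and 9035 in TMAT embryos, 9292, 9049 and 10108 in MES embryos and 8832, 8502 and 7516 in controls at 48 hpf. slc29a4a at 24 hpf gave 3569, 5196 and 3931 in TMAT embryos, 4352, 3684 and 5001 in MES embryos and 3807, 4907 and 4312.5 in controls. Its log2 difference was 1.02 ± 0.20, 1.14 ± 0.20 and 0.94 ± 0.20 in TMAT, MES and control embryos (limma adjusted p = 0.00193, 0.000754 and 0.00262). slc48a1a, a haem transporter of endosomes, rose in controls (0.78 ± 0.27, limma adjusted p = 0.0398), with -0.01 in TMAT and -0.20 in MES embryos.

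slc27a6, a fatty acid transport protein, fell at 48 hpf in both exposed groups and did not pass in controls. Its intensity was 1144, 1083 and 857 in TMAT embryos, 1029, 959 and 1006 in MES embryos and 1827, 1804 and 1200.4 in controls at 48 hpf. slc27a6 at 24 hpf gave 2349, 1226 and 2464 in TMAT embryos, 2237, 2183 and 1399.8 in MES embryos and 1407, 1465 and 1228 in controls. MES array 3 and TMAT array 2 at 24 hpf were the lowest of their groups and close to the 3 controls. Log2 differences were -0.91 ± 0.28 in TMAT embryos (limma adjusted p = 0.0338), -0.93 ± 0.28 in MES embryos (0.0226) and 0.21 ± 0.28 in controls (0.598). The difference between treatments itself did not pass: -1.13 ± 0.39 for TMAT (limma adjusted p = 0.61) and -1.14 ± 0.39 for MES (0.208). The other 5 of the 9 were slc27a1b, slc29a1a, slc33a1, slc44a4 and slc49a3, and none passed in any treatment.

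Of the 5 carriers of sugars and nucleotide sugars, 1 fell in TMAT embryos, 2 in MES embryos and 2 in controls, and none rose. slc35a3b brings UDP-N-acetylglucosamine into the Golgi, where it is used to build glycans. It gave 847, 759 and 784 in TMAT embryos, 703, 859 and 779 in MES embryos and 849, 813 and 763 in controls at 48 hpf. slc35a3b at 24 hpf gave 1101, 1164 and 1321 in TMAT embryos, 1312, 1286 and 1144 in MES embryos and 1268, 1527 and 1311 in controls. Ages did not overlap in any treatment, and the log2 difference was -0.58 ± 0.17, -0.68 ± 0.17 and -0.76 ± 0.17 in TMAT, MES and control embryos (limma adjusted p = 0.0278, 0.00919 and 0.00405). slc35b3, which brings the sulphate donor PAPS into the Golgi, fell in MES embryos (-0.77 ± 0.22, limma adjusted p = 0.0204) and in controls (-0.67 ± 0.22, 0.0355), with -0.46 in TMAT embryos (0.21). slc35c1, the GDP-fucose transporter, and the phosphate exchangers slc37a1 and slc37a2 passed in none. slc37a2 had the highest mean of the group, at 34426 to 52337 on the 18 arrays, where array maxima were 59892 to 64275.

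Of the 9 carriers of monocarboxylates, organic ions and bile acids, 1 rose in TMAT embryos, 2 in MES embryos and 1 in controls, and none fell. slc16a10, an aromatic amino acid transporter, rose in MES embryos (0.58 ± 0.20, limma adjusted p = 0.0445) and in controls (0.71 ± 0.20, 0.0157). TMAT embryos had 0.57 ± 0.20 for it (0.0658). slc22a7a, an organic anion transporter, rose in TMAT embryos (0.82 ± 0.23, limma adjusted p = 0.0248) and in MES embryos (0.75 ± 0.23, 0.0276), with 0.46 ± 0.23 in controls (0.154). The other 7 of these 9 genes (slc10a3, slc13a3, slc16a4, slc22a4, slc22a6l, slc22a13b and slc47a2.1) passed in no treatment.

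Of the 3 metal carriers, 1 fell in TMAT embryos, the same 1 in MES embryos and none in controls. slc30a1b, which exports zinc from cells, gave 512, 695 and 527 in TMAT embryos, 675, 634 and 640.0 in MES embryos and 988, 898 and 629 in controls at 48 hpf. slc30a1b at 24 hpf gave 2036, 1557 and 2681 in TMAT embryos, 2365, 2370.0 and 1877 in MES embryos and 613, 3079.8 and 2854 in controls. At 24 hpf every array but control array 1 was above all 9 arrays of 48 hpf. On the log2 scale the ages differed by -1.83 ± 0.45 in TMAT embryos and -1.75 ± 0.45 in MES embryos (limma adjusted p = 0.00954 and 0.00992). In controls it was -1.09 ± 0.45 (0.081), and without control array 1 it was -1.85 (0.000137). Over 14 alternatives for controls, the combined table aside, its adjusted p ran from 8.55e-05 to 0.334. That low end belongs to an alternative without 3 arrays at 24 hpf, described below, which was chosen after the data were seen. The zinc carriers slc30a4 and slc39a10 passed in none.

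Of these 41 calls between the ages, 24 held when any 1 array of the groups compared was left out, 8 in each treatment. The share of calls that held was not counted over all features, so these numbers do not set the carriers apart. slc14a2, slc1a1, slc29a4a, slc32a1 and slc38a3a held in all 3. The other 17 were lost without at least 1 array. Lost without any 1 of 6 arrays were slc17a5 in TMAT embryos (limma adjusted p = 0.0595 to 0.121) and slc16a10 in MES embryos (0.0514 to 0.157). Among those lost without 5 of 6 were slc38a11 (0.0816 to 0.191) and slc48a1a (0.0506 to 0.141) in controls. So was slc35a3b in TMAT embryos (0.0521 to 0.124). slc27a6 was lost in TMAT embryos without any array but TMAT array 2 at 24 hpf (0.0617 to 0.158), and in MES embryos without MES array 1 or 2 of either age (0.0550 to 0.0889). slc8a4a in MES embryos was lost without MES array 2 or 3 at 24 hpf (0.0506 and 0.0690). The call of slc22a7a was lost without 4 of 6 arrays in TMAT embryos (0.0623 to 0.106) and 5 of 6 in MES embryos (0.0549 to 0.114). That of slc6a6b in MES embryos was lost without 4 of 6 (0.0994 to 0.141).

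Several control values rested on single arrays. Without control array 1 at 24 hpf, 12 genes were called in controls (21.1% of all features), slc12a2 (log2 difference 0.98, limma adjusted p = 0.154), slc17a5 (0.75, 0.0578) and slc7a4 (0.71, 0.116) among those lost, and the median over the 44 genes was 0.05. The calls of slc12a2 and slc7a4 were lost also without control array 1 or 2 at 48 hpf, and that of slc17a5 without control array 1 or 3 at 48 hpf. Over 14 alternatives, the combined table aside, the adjusted p ran from 0.00267 to 0.250 for slc12a2, from 0.000675 to 0.209 for slc17a5 and from 0.00412 to 0.321 for slc7a4. The low end for slc12a2 came from leaving out 3 arrays at 24 hpf, described below, that were singled out after their values were seen. Without control array 1 at 48 hpf 8 genes were called in controls (18.5% of all features). Without MES array 2 at 48 hpf or at 24 hpf 9 were called in MES embryos (13.5% and 15.8% of all features). With the combined table's labels, 0 of the 44 passed in any treatment.

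At 24 hpf, 1 array of each group was set apart by a shared group of carriers. slc39a10, a zinc importer, gave 11822, 2555 and 15431 in TMAT arrays 1 to 3, 14166, 12869.5 and 2576 in MES arrays and 934, 8319.7 and 9397 in control arrays. TMAT array 2, MES array 3 and control array 1 were thus each more than 2-fold below both other arrays of their group. The same was true of 5 further genes in all 3 of those arrays: slc12a2, slc34a2b, slc35c1, slc37a1 and slc7a6.

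These 6 genes are 13.6% of the 44, beside 3.22% of all features. In TMAT array 2 the count was 8 genes (9.35% of all features), in MES array 3 it was 7 (5.96%) and in control array 1 it was 14 (14.1%). It was 0 in the other 6 arrays at 24 hpf, where control array 2 had 6.34% of all features and the other 5 had 0.544% or less. At 48 hpf it was 1, slc8a4a in control array 3 (3.40% of all features), and 0 in control array 2 (6.46%). Other arrays thus also stood apart over all features. Lowest of their group in all 3 arrays, by any margin, were 17 of the 44 genes (38.6%), beside 16.7% of all features. The 3 arrays were singled out after their values were seen, carry different replicate numbers, and the cause was not tested. For slc7a6 the 24 hpf values were 4602, 1779 and 6747 in TMAT, 6574, 4782 and 1700.4 in MES and 802, 3758 and 4666 in control arrays. For slc37a1 they were 10546.5, 3344 and 13182 in TMAT arrays, 10361, 11781 and 4592 in MES arrays and 2109, 8089 and 9692 in control arrays.

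**Figure D4:**
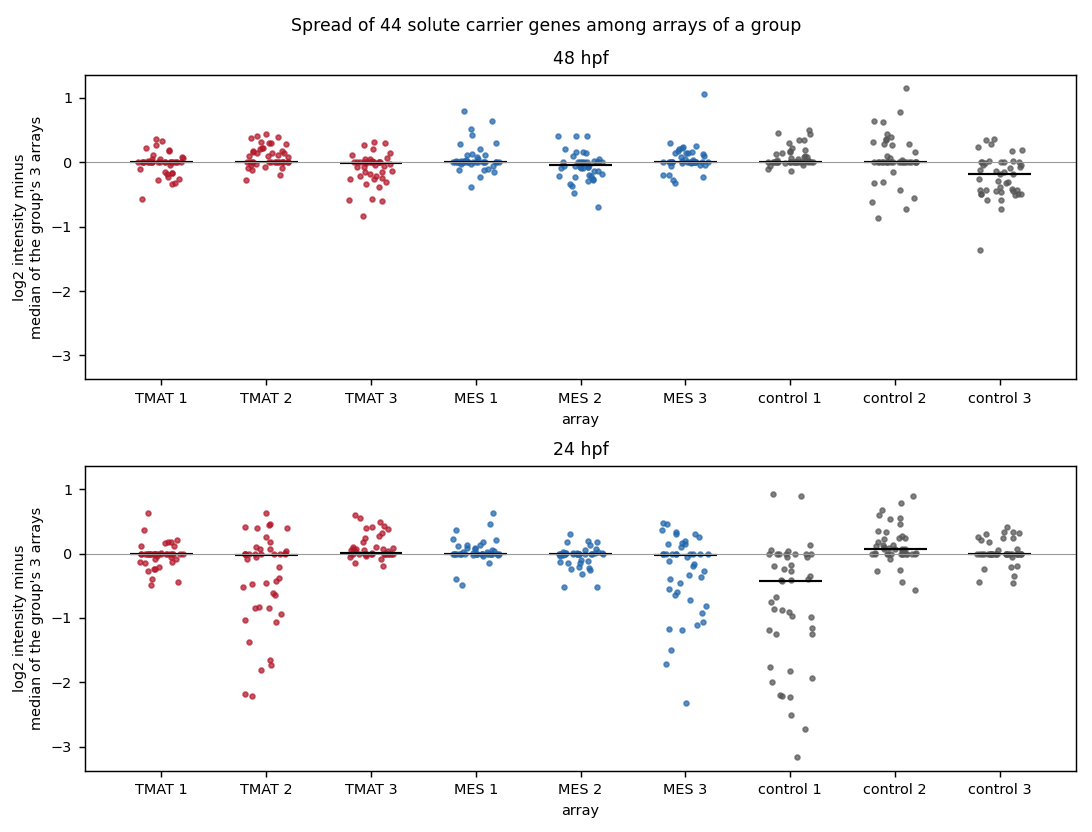
Each point is 1 solute carrier on 1 array, as its log2 intensity minus the median of the 3 arrays of its group, with the arrays along the horizontal axis from the 48 hpf groups to the 24 hpf groups. TMAT array 2, MES array 3 and control array 1 at 24 hpf carry points below -1 that the other 24 hpf arrays do not.

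Without those 3 arrays, an alternative chosen after the data were seen, more carriers were called between the ages. TMAT embryos had 22 called genes (21.2% of all features), with all 12 earlier ones among them. MES embryos had 24 (34.3% of all features), with all 14 earlier ones, and controls had 18 (27% of all features), with 14 of the earlier 15. Calls over all features thus also became more frequent in both exposed groups. Newly called in both TMAT and MES embryos were slc29a1a, slc34a2b, slc35c1, slc37a1, slc38a9, slc39a10, slc7a6 and slc9a6a. Of these, slc34a2b, slc35c1, slc37a1, slc39a10 and slc7a6 are among the genes whose low values set the 3 arrays apart. The others, slc29a1a, slc38a9 and slc9a6a, were also the lowest of their group in all 3 of those arrays. Leaving the arrays out therefore lowered the spread of these genes by choice, and their new calls are no independent support. The estimate of spread then rests on 15 arrays, and 24 hpf groups hold 2 arrays each.

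At 48 hpf the particles were compared with the vehicle. Most carriers, like most features, were lower in exposed embryos, though almost no carrier passed the test. Both comparisons share the 3 control arrays, so they are not independent. In TMAT embryos 0 of 44 genes were called (7 at an unadjusted p under 0.05), and limma called 0% of all features there (20.3% at an unadjusted p under 0.05). In MES embryos 1 was called, the glutamine transporter slc38a3a, against 5.76% of all features, 3.87% higher and 1.89% lower. At an unadjusted p under 0.05 were 11 of the 44 in MES embryos, beside 23.5% of all features. The median log2 difference over the 44 genes was -0.30 for TMAT and -0.33 for MES, beside -0.15 and -0.14 over all features. Leaving out 1 array moved it to between -0.47 (without control array 3) and -0.23 (without TMAT array 3) for TMAT, and to between -0.37 (without control array 3) and -0.21 (without control array 1) for MES. The medians over all features were also below 0, and the share of all features below the control mean was not counted. Below the control mean were 33 genes in TMAT and 32 in MES embryos. With the arrays centred on their medians, 28 were below it in each, and the medians were -0.19 and -0.23, beside -0.04 and -0.03 over all features.

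Values did not overlap and were lower in exposed embryos for 10 genes (22.7%) in TMAT embryos, beside 15.9% of all features, and for 16 (36.4%) in MES embryos, beside 20.2%. Values did not overlap and were higher for 3 genes in TMAT and 2 in MES embryos (7.76% and 10.3% of all features). Controls differed among themselves here: array 1 exceeded all 6 exposed arrays for 25 genes, array 2 for 25 and array 3 for 13 (39.3%, 46.2% and 24.7% of all features).

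**Figure D5:**
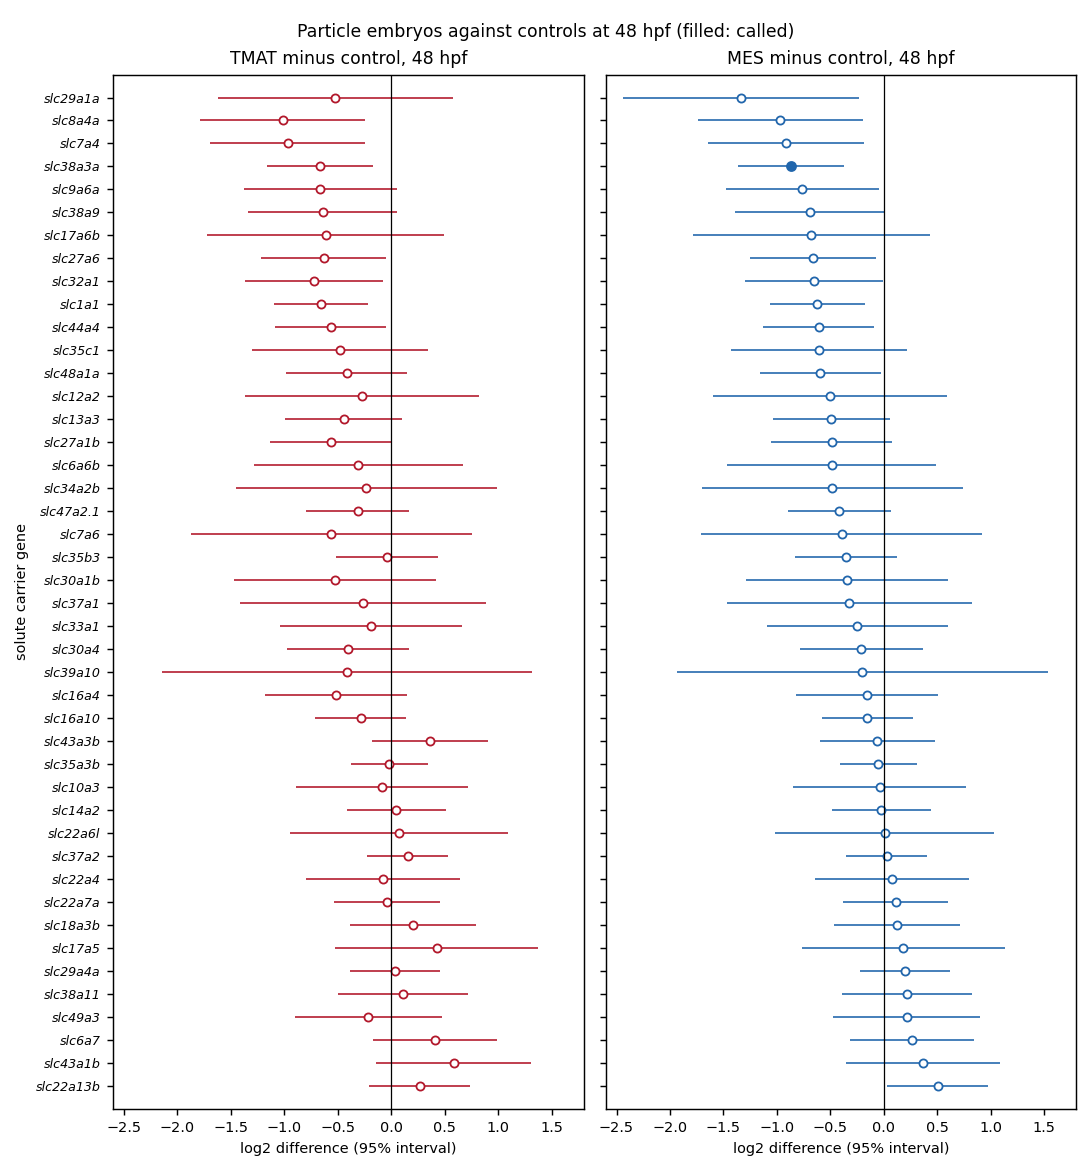
The plot gives the log2 difference from control at 48 hpf for each solute carrier, TMAT minus control on the left and MES minus control on the right, with 95% intervals from limma. Most estimates lie below 0, most intervals include 0, and slc38a3a in MES embryos is the 1 that passed the test.

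slc38a3a had 6287, 5497 and 6984 in TMAT embryos, 4689.5, 5506 and 6144 in MES embryos and 9837, 11994.5 and 8185 in controls at 48 hpf. Neither exposed group overlapped the controls. The log2 difference was -0.67 ± 0.23 for TMAT (limma adjusted p = 0.144) and -0.87 ± 0.23 for MES (0.0425). The call in MES embryos was lost without control array 1, control array 2, MES array 1 or MES array 2 (limma adjusted p = 0.0629 to 0.188 over the alternatives that ended it, the combined table aside). It was lost also with the arrays centred on their medians (0.0646), a replicate block (0.0650), the ordinary statistic (0.0629), only the groups compared in the fit (0.104) and without both control arrays that correlate least (0.108). It passed in 4 of 13 alternatives.

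slc1a1 had the smallest p-value of the 44 in TMAT embryos, -0.66 ± 0.21 (limma adjusted p = 0.114), beside -0.62 ± 0.21 in MES embryos (0.086). slc7a4 gave 1204, 1274.5 and 1039 in TMAT, 1181, 1256 and 1206 in MES and 2498, 3182 and 1506 in control arrays, or -0.97 ± 0.34 and -0.91 ± 0.34 for TMAT and MES. The largest negative estimate in MES embryos was that of the nucleoside transporter slc29a1a, -1.34 ± 0.52 (limma adjusted p = 0.133), with -0.53 ± 0.52 in TMAT embryos. Its single values were 4329, 5605 and 2896 in TMAT, 2160.3, 1338 and 4514 in MES and 5314.5, 6939 and 5691.5 in control arrays.

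The neuronal vesicle carriers slc32a1 and slc17a6b were below control without passing the test. The log2 difference of slc32a1 was -0.72 ± 0.30 in TMAT and -0.65 ± 0.30 in MES embryos (limma adjusted p = 0.203 and 0.206). That of slc17a6b was -0.62 ± 0.52 and -0.68 ± 0.52 (0.518 and 0.459). The 1 neuronal marker measured of a list of 8, the glutamate receptor subunit grin1a, moved with them: 2668, 3967.5 and 2694.5 in TMAT, 3014, 1808 and 2737 in MES and 6659, 7947 and 4348 in control arrays. It fell in MES embryos (-1.32 ± 0.33 on the log2 scale, limma adjusted p = 0.0345) and did not pass in TMAT embryos (0.127). The part of grin1a in the result was not tested. Other neuronal carriers went different ways. slc6a5, which the rule leaves out, overlapped the controls, with 20044, 18300.5 and 17302 in TMAT, 22828, 17758 and 13143 in MES and 23331, 16265 and 20786 in control arrays. slc6a7 gave 3237, 3017 and 3195 in TMAT, 2697, 2940 and 2931 in MES and 2688, 1630 and 3073 in control arrays, none below the control range. slc17a6a, also left out, was lower than control in both without overlap. slc18a3b, close to the random probes, gave 108.9, 122.8 and 152.9 in TMAT, 153.8, 107.1 and 106.3 in MES and 140.3, 99.5 and 96.7 in control arrays. None of its exposed arrays was below the control range.

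Among the genes above control, the organic anion transporter slc22a13b gave 1964, 1635 and 1633 in TMAT, 2012, 2662 and 1603 in MES and 1458.5, 1557 and 1330.2 in control arrays. Neither exposed group overlapped the controls, and the log2 difference was 0.27 ± 0.22 for TMAT and 0.50 ± 0.22 for MES (limma adjusted p = 0.511 and 0.184). The metal carriers were all below the control mean in both, with log2 differences of -0.52 to -0.20, and none passed. The intervals admit sizeable changes: for slc30a1b the 95% interval was -1.47 to 0.42 in TMAT and -1.29 to 0.60 in MES embryos. Without control array 3 at 48 hpf, 5 genes (11.4%) were called in TMAT and 5 in MES embryos, beside 17% and 16.9% of all features.

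At 24 hpf no carrier passed against control. In both TMAT and MES embryos limma called 0% of all features and 0 of the 44 genes, with 2 of the 44 at an unadjusted p under 0.05 in each (6.04% and 3.93% of all features). The smallest p-value in each was that of slc1a1, -0.54 ± 0.21 in TMAT and -0.52 ± 0.21 in MES embryos (limma adjusted p = 0.654 and 0.787). The next were slc29a1a in TMAT embryos, 1.12 ± 0.52 (0.654), and slc43a3b in MES embryos, 0.57 ± 0.25 (0.787). The median over the 44 genes was 0.08 in TMAT and 0.20 in MES embryos, beside -0.08 in each over all features. Without control array 1 it was -0.17 and -0.12, beside -0.07 and -0.04 over all features. Without control array 2 it was 0.29 and 0.35, beside -0.12 in each over all features.

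Whether a particle's effect differed between the ages was tested as an interaction. No carrier passed for TMAT (3 at an unadjusted p under 0.05, beside 7.47% of all features, of which 0% were called) or for MES (9, beside 16.1%, of which 0.0027% were called). The median change of effect, 48 minus 24 hpf, was -0.46 for TMAT and -0.42 for MES, beside -0.01 and -0.03 over all features, and -0.12 for each without control array 1 at 24 hpf. For MES it was -0.72 without control array 2 and -0.64 without control array 3 at 24 hpf. slc29a1a gave the largest estimates, -1.65 ± 0.73 for TMAT and -2.07 ± 0.73 for MES (limma adjusted p = 0.61 and 0.214). Without the 3 arrays set apart at 24 hpf, slc12a2, slc17a6b and slc27a6 passed for both particles and slc35c1 and slc9a6a for MES, all with negative changes of effect. In that setting limma called 2.5% of all features for TMAT and 3.63% for MES, of which 925 of 928 and 1263 of 1348 were negative. There slc17a6b had -1.68 ± 0.34 for TMAT and -1.64 ± 0.34 for MES (limma adjusted p = 0.0249 and 0.0221). But slc12a2 and slc35c1 are among the genes whose low values set those arrays apart. slc17a6b was more than 2-fold low in TMAT array 2 and MES array 3. slc9a6a was the lowest of its group in all 3 arrays left out, and slc27a6 in TMAT array 2 and MES array 3. Leaving the arrays out shrank the spread of such genes by choice: for slc12a2 and MES the SE was 0.73 with all arrays and 0.28 without them. These passes are thus no independent support.

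TMAT and MES embryos were also set against each other, at doses that differed. No carrier passed at 48 hpf or at 24 hpf, limma called 0% of all features at either age, and 0 of the 44 had an unadjusted p under 0.05 (1.59% and 0.0997% of all features). The largest estimate at 48 hpf, TMAT minus MES, was 0.81 ± 0.52 for slc29a1a, with a 95% interval of -0.29 to 1.91. For slc38a3a it was 0.20 ± 0.23 (-0.30 to 0.70), and for slc32a1 -0.07 ± 0.30 (-0.71 to 0.58). At 24 hpf the 44 estimates ran from -0.42 to 0.38. These intervals do not show that the particles act alike.

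A list of transport genes outside the 44, with the mitochondrial carriers, ABC pumps, slco carriers, aquaporins and ATPases, had 29 measured members. At 48 against 24 hpf, 7 were called higher and 2 lower in TMAT embryos, 7 higher and 4 lower in MES embryos, and 5 higher and 2 lower in controls. Of all features, 15.5%, 26% and 26.8% were called in TMAT, MES and control embryos. The efflux pumps abcg2a and abcg2d and the organic anion and prostaglandin carriers slco2b1 and slco2a1 rose in all 3 treatments. abcg2d, which like abcg2a splits ATP to move its substrate, rose by 1.35, 1.52 and 1.55 on the log2 scale in TMAT, MES and control embryos, and slco2a1 by 1.48, 1.83 and 1.18. Against control at 48 hpf the single call among the 29 was the mitochondrial carrier slc25a47a in MES embryos (0.81 ± 0.20, limma adjusted p = 0.0324). In that comparison 5.76% of all features were called.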

How the data were processed

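Total RNA from whole-embryo pools was hybridised to 18 one-colour arrays, with Cy3 as the label. The authors deposited a linear intensity for each feature and array, made with RMA, per the submitters' processing notes; its version is not given in those sources. RMA corrects background, normalizes quantiles and summarises probes, and quantile normalization can hide a shift shared by most genes. The 44 features summarised 6 to 12 probes each (median 9). The log2 of the deposited intensity was taken with no further scaling and no pseudocount.

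Symbols came from RefSeq: 2659 of 3051 NM_ features had one, and 392 had none. Genome positions and sequences were not used. One limma 3.58.1 fit in R 4.3.3 held the means of the 6 groups (12 residual and 3.85 prior degrees of freedom). Contrasts were two-sided, with Benjamini-Hochberg adjustment for each. Precision is limited by the number of arrays: the SE had a median of 0.327 between groups (log2) and 0.463 for changes of effect. The fit was tested on simulated data with independent noise, where each feature had the same spread in all groups. That test does not cover groups or single arrays that differ in spread, as those here did.

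The combined table's columns equalled a per-array table (tolerance 0.001), 2 of 18 that of their own label, 10 one of the same age and 6 one of the same agent. Members, lists and tests were chosen with earlier results of these data known. Named genes were the called ones of each comparison, the smallest p-values where few were called, up to 4 of each kind of substrate, and the brightest of each. slc29a1a in MES embryos at 48 hpf and the genes set apart at 24 hpf were named after their values were seen. Alternatives were scaling, array weights, a filter on dim features, the test statistic, the arrays in the fit, a replicate block, the combined table and leaving out arrays.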

Additional observations from a re-analysis of the deposited data

How the results depend on the processing

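Of 1684 alternatives to 110 values of named genes, 1453 kept direction and side of the threshold, 132 kept direction and lost the call, 36 gained a call and 63 reversed. Only a called value can lose its call. Called among the 110 were the 41 between the ages and slc38a3a in MES embryos against control. The rest were not called and could keep their side by staying so. The 1453 therefore do not show how well calls held. Of the 41 calls, 24 held without any 1 array and 17 were lost without at least 1. The p-values cannot separate effects of arrays from effects of treatments, and 3 arrays a group limit every call. The alternatives without both control arrays that correlate least with their age, and without the 3 arrays set apart at 24 hpf, were added after the data were seen. Causes were not tested.

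Leaving out 1 array gave 8 to 13 called genes between the ages in controls, 9 to 12 in MES embryos, and 0 to 5 for MES and 0 to 5 for TMAT against control at 48 hpf. The shares of all features called were 18.5% to 34.1%, 13.5% to 22.9%, 0% to 16.9% and 0% to 17%. Array weights gave 26 called genes between the ages in TMAT, 29 in MES embryos and 22 in controls (39.4%, 58.6% and 39.9% of all features), 17 and 24 against control at 48 hpf (38.8% and 51.5%), and 6 and 11 for the change of effect (11.3% and 20.6%). At 48 hpf, control array 1 had a weight of 6.39, beside 0.189 and 0.348 for the other controls. MES array 1 had 5.04, beside 0.870 and 1.31. The weighted means of these groups thus rest largely on 1 array each. Without the 3 arrays set apart at 24 hpf, TMAT and MES had 22 and 24 between the ages (21.2% and 34.3% of all features). For the change of effect they then had 3 and 5 (2.5% and 3.63%). Those arrays were singled out after low values of these same carriers were seen. With all groups in the fit, 12 genes were called between the ages in TMAT, 14 in MES embryos and 15 in controls (15.5%, 26% and 26.8% of all features). With only the groups compared in the fit, 9 genes were called between the ages in TMAT and 18 in MES embryos (17.1% and 42% of all features). Controls then had 6 (7.18% of all features). Judged by the spread of the groups compared, controls thus had fewer calls and MES embryos more. For MES against control at 48 hpf, 0 genes were called (0% of all features). That last count of genes was 0 also with centred arrays, beside 5.44% of all features, and with a replicate block, beside 3.73%. The ordinary statistic gave 0 too (0.0566% of all features), as did leaving out both control arrays that correlate least with their age (0.0081%). Centring moved the median of all features in the control comparison of ages to -0.15, where -0.01 was found without it, and gave 4265 features higher and 6300 lower beside 4954 and 4988.

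The replicate numbers did not pair the arrays: 13 of 45 pairs of the same number correlated above 0.1 (-0.73 to 0.61). With the block, 11 genes were called between the ages in TMAT embryos, 12 in MES embryos and 14 in controls (13.7%, 23.3% and 23.8% of all features).

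The combined table, taken by its own column labels, gave 0 calls between the ages in TMAT, MES and control embryos and 0 for MES against control at 48 hpf, and it reversed 49 log2 differences. For 48 minus 24 hpf in MES embryos they were slc14a2 0.57, slc16a10 -0.43, slc1a1 -1.08, slc22a7a -0.30, slc27a6 0.10, slc29a4a -0.33, slc30a1b 0.0034, slc32a1 -1.39, slc35a3b 0.14, slc35b3 0.050, slc38a11 -0.44, slc38a3a -0.89 and slc8a4a -1.09. For 48 minus 24 hpf in controls they were slc13a3 -0.28, slc1a1 -0.11, slc34a2b -0.063, slc47a2.1 -0.062, slc48a1a -0.30, slc6a7 0.089, slc7a4 -0.14 and slc9a6a -0.40. For the change of the MES effect they were slc22a13b -0.14, slc22a7a -0.40, slc27a6 0.60, slc29a1a 0.45, slc38a11 -0.64, slc48a1a 0.14 and slc9a6a 0.13. For the change of the TMAT effect they were slc22a13b -0.23, slc27a6 0.11, slc29a1a 0.65, slc7a4 0.13 and slc9a6a 0.19. For MES minus control at 24 hpf they were slc1a1 0.32, slc27a6 -0.17 and slc38a11 0.27. TMAT minus control at 48 hpf gave slc22a13b -0.24, slc38a3a 0.16 and slc7a4 0.11. TMAT minus MES gave at 24 hpf slc18a3b 0.43, slc22a4 -0.35, slc29a1a -0.21, slc38a9 -0.14, slc43a3b 0.020 and slc44a4 -0.41. It gave at 48 hpf slc29a1a -0.013, slc29a4a 0.39, slc35b3 -0.14 and slc49a3 0.047.

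The other 14 reversals were of values that were not called. Leaving out 1 array gave slc34a2b between the ages in controls -0.74 to 0.65, slc37a1 -0.010 to 1.09, and slc38a11 for MES minus control at 24 hpf -0.72 to 0.024. For TMAT minus MES at 24 hpf it gave slc29a1a -0.11 to 1.07, slc38a9 -0.050 to 0.53 and slc44a4 -0.035 to 0.32. slc34a2b was also -0.54 with array weights, -0.74 without the 3 arrays set apart (where it was called lower) and -0.97 without both control arrays that correlate least. Without the 3 arrays slc37a1 was -0.010 and slc38a11 0.19. Without both control arrays slc38a11 was 0.024 and slc30a4 -0.048.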
